A study of Mus musculus with 3 samples.

Results

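Fibrocartilage cells were compared between a mouse embryonic stem cell (mESC) culture and the embryonic tail. They are the cells that the authors' clustering gave code 4 in both libraries, and they numbered 1096 of 9873 cells, 855 of 7821 in the culture and 241 of 2052 in the tail. This is 10.9% (10.2 to 11.6) of the culture and 11.7% (10.4 to 13.2) of the tail. The study numbers its fibrocartilage cluster differently from the deposited codes, and its list of cells per cluster pairs that number and its share with the cells of code 3, not code 4. Between these codes it was code 4 that carried cartilage genes, since in the culture it had *Col2a1* at 2271 CPM, while code 3 had this gene at 26.9 CPM and the pluripotency gene *Pou5f1* at 545 CPM. The clusters were defined in the tail, and the study assigned culture cells to them through an integration of both datasets, so that the genes that define the cluster are not independent of the choice of cells.

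The D10 culture came from mESCs derived from ScxGFP reporter blastocysts, in which GFP follows *Scx*, a transcription factor of tendon and fibrocartilage progenitors. Embryoid bodies were exposed to LDN-193189 at 500 nM, which blocks BMP receptors, over D0 to D6, and to CHIR at 5 μM, which activates WNT signaling, over D2 to D6. Over D6 to D10 the medium held FGF2 and TGFβ1, both at 10 ng/mL, with SAG, an agonist of the hedgehog receptor Smoothened, at 100 nM. The whole culture was sequenced at D10 without a sort for GFP. The E14.5 tail was cut from embryos and dissociated whole, and the study's methods state that embryos came from ScxGFP dams. Both were depleted of dead cells and loaded for 10x Genomics 3′ v3 libraries. Which of the mESC lines was used, and how many embryos were pooled, is not given in the sources used here. Each side is 1 library, so no test between culture and tail was made.

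Fibrocartilage is the tissue of the annulus fibrosus, the meniscus and tendon insertions. Its cells make type II collagen and aggrecan, the components of cartilage that resist compression, together with type I collagen and small proteoglycans of tendon. In the trunk and tail these cells descend from the sclerotome of the somite, in which PAX1, PAX9 and SOX9 act, and progenitors that carry both SCX and SOX9 give rise to tendon and to cartilage.

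Levels are given as CPM. This is the number of unique molecular identifiers (UMIs) of a gene, summed over the fibrocartilage cells of 1 library, divided by all UMIs of those cells and scaled to 1000000. Values in parentheses are exact 95% intervals, Poisson for levels, conditional binomial for ratios and Clopper-Pearson for shares, and they cover counting error only. Beside a count of 0, what that count allows is given as the value of 3 counts, not as such an interval. Where a pair of levels stands without a library's name, the culture's comes first. The summed depth was nearly equal, with 3325501 UMIs in the culture and 3307424 in the tail, but the depth per cell was not. The median cell had 3696 UMIs and 2026 genes in the culture, and 13136 UMIs and 4638 genes in the tail. The libraries shared 4 cell barcodes, and 0 of these lay in the fibrocartilage cells of both.

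Cartilage markers were read in the cluster, which was itself made from expression, so that they are no independent check of its label. Of 14 such markers, 10 were detected in at least 10% of the culture cells and 14 in at least 10% of the tail cells, with summed levels of 7208 CPM and 14473 CPM. For the 13 tendon and fibrous markers the counts were 11 and 12, with summed levels of 8569 CPM and 5338 CPM. In the tendon cells (code 1) the summed cartilage markers were at 1331 CPM in the culture and 689 CPM in the tail. The tendon and fibrous markers there summed to 16795 CPM and 14481 CPM, above those of the fibrocartilage cells. Markers of white blood, muscle, nerve, endothelium and pluripotent cells each summed to 26.8 CPM or less on either side, those of epithelium to 17.4 CPM and 55.3 CPM, and those of notochord to 3.91 CPM and 59.3 CPM. *Ptprc*, which defines white blood cells, had 0 UMIs on both sides. Haemoglobin made up 0.643% of the tail's UMIs and 0.00111% of the culture's. In the tail, 3 of 241 cells held 96.0% of the haemoglobin UMIs, and in 1 of them haemoglobin was 38.0% of all UMIs. Leaving out haemoglobin genes moved the log2 ratio of no named gene by more than 0.00929.

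Many genes of the cartilage matrix list were lower in the culture than in the tail (see the plot of levels by gene). Of 9986 genes compared, meaning that 10% or more of the fibrocartilage cells of the culture or of the tail had a UMI, 485 (4.86%) were at least 2-fold higher in the culture and 1300 (13%) in the tail. Of 30 cartilage matrix genes, 29 were measured and 23 compared. Among these, 2 were at least 2-fold higher in the culture, 13 were at least 2-fold higher in the tail and 8 lay between. The median log2 ratio of culture over tail was -1.48, against -0.18 over all genes compared. The 10% filter admits more genes through the deeper tail cells. With every cell thinned at random to 3000 UMIs, which kept 641 culture and 240 tail cells, the counts over all genes were 460 and 550, and 3 and 10 of 20 cartilage matrix genes. The filter was applied anew to the thinned cells. Here and below, 460 and 550 are therefore not counts out of 9986, and their share of all genes is not given.

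**Figure D1:**
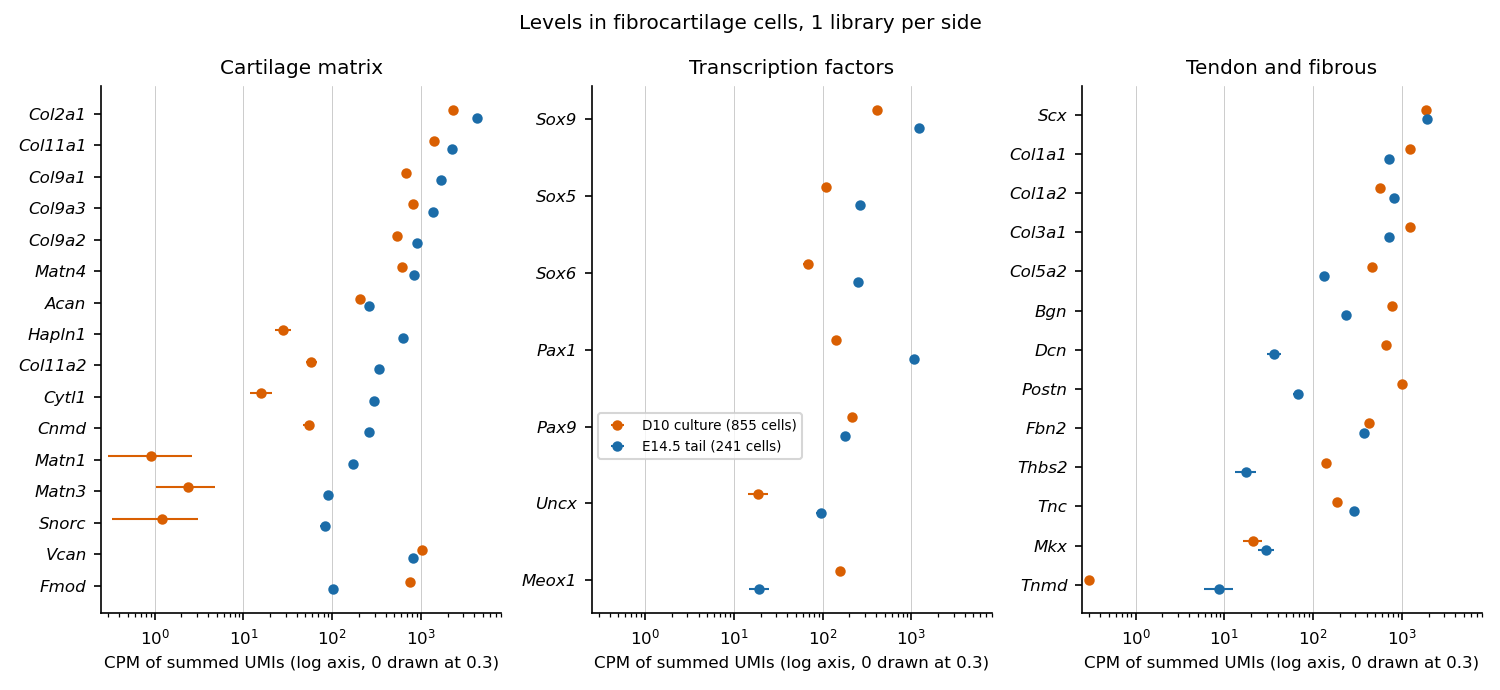
Level of cartilage matrix genes, transcription factors, and tendon and fibrous genes in the fibrocartilage cells of the D10 culture (orange) and of the E14.5 tail (blue), in CPM on a log axis. Points are levels of 1 library and bars exact 95% Poisson intervals. The cartilage collagen genes drawn differ by 2.47-fold or less except *Col11a2* (5.79-fold), *Matn1*, *Matn3*, *Snorc* and *Hapln1* lie far to the right in the tail, and *Dcn*, *Postn*, *Thbs2* and *Fmod* lie to the right in the culture.

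The fibrillar collagen of cartilage and its partners were present on both sides. *Col2a1*, the chain of type II collagen, was at 2271 CPM (2220 to 2323) in the culture and 4282 CPM (4212 to 4354) in the tail. It was 1.89-fold higher in the tail (1.83 to 1.94). *Col11a1*, a chain of the type XI collagen that nucleates these fibrils, was at 1417 CPM and 2235 CPM. The type IX collagens, which coat the fibril surface, differed by less than 2-fold for *Col9a2* (532 CPM and 909 CPM) and *Col9a3* (803 CPM and 1381 CPM), and by 2.47-fold (2.36 to 2.60) for *Col9a1* (687 CPM and 1700 CPM). *Acan*, the core protein of aggrecan, lay closest, at 208 CPM (193 to 224) and 259 CPM (242 to 277). *Matn4*, which encodes a matrilin, was at 617 CPM and 837 CPM. *Col11a2*, the other chain of type XI collagen, stood apart from these, at 58.3 CPM and 338 CPM, 5.79-fold higher in the tail (4.97 to 6.78).

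*Hapln1*, *Matn1*, *Matn3* and *Snorc* were low in the culture. *Hapln1*, the link protein that fixes aggrecan to hyaluronan, was at 28 CPM (22.6 to 34.3) in the culture and 635 CPM (608 to 663) in the tail, 22.7-fold higher in the tail (18.4 to 28.3). *Matn1*, the matrilin of mature hyaline cartilage, had 3 UMIs in the culture and 561 in the tail, a ratio of 188 (64.0 to 914). *Snorc*, a proteoglycan of chondrocytes, had 4 UMIs and 273 UMIs, a ratio of 68.6 (26.5 to 254). *Matn3* had 8 UMIs and 298 UMIs, a ratio of 37.5 (18.8 to 87.6). At 3000 UMIs per cell, *Matn1* was found in 2 of 641 culture cells (0.312%, 0.0378 to 1.12). The cells of code 3 in the culture, which had the pluripotency gene *Pou5f1* at 545 CPM and should lack *Matn1*, had it in 0.740% (0.320 to 1.45), so that the share in the fibrocartilage cells is not above background. Before thinning the shares were 0.351% and 2.02%, at median depths of 3696 and 10370 UMIs. In the tail the share was 8.33% (5.16 to 12.6), or 12.4% before thinning. There 0 of 125 cells of code 12, whose UMIs were 86.1% haemoglobin, had *Matn1*, which allows up to 2.4%. Their median depth was 8391.5 UMIs, against 13136 in the fibrocartilage cells. *Cytl1*, a secreted cytokine-like factor of cartilage, was at 15.9 CPM and 298 CPM, and *Cnmd*, which encodes chondromodulin, at 54.1 CPM and 257 CPM.

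*Fmod* and *Prelp*, small leucine-rich proteoglycans, ran the other way. *Fmod* (fibromodulin), which binds collagen fibrils in tendon and cartilage, was at 746 CPM (717 to 776) in the culture and 102 CPM (91.6 to 114) in the tail, 7.30-fold higher in the culture (6.52 to 8.21). *Prelp*, a proteoglycan of the same family, was at 76.4 CPM and 35.7 CPM. These were the only 2 compared genes of the list at least 2-fold higher in the culture before thinning. With thinned cells it was 3 of 20. *Aspn* (asporin, 21.4 CPM and 52.9 CPM) and *Epyc* (epiphycan, 26 UMIs and 99 UMIs, below the filter), of the same family, were higher in the tail, but *Aspn* was higher in the culture (log2 ratio 1.80) when set against only the 50 tail cells with *Xist* and no Y-linked UMI. *Vcan*, the versican of immature matrix, differed little, at 1026 CPM and 821 CPM.

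Transcription factors of cartilage were lower in the culture for the SOX trio and for *Pax1*. Of 20 factors, 16 were compared, of which 1 was at least 2-fold higher in the culture (6.25%) and 7 in the tail (43.8%), against 4.86% and 13% of all genes. Their median log2 ratio was -0.53. *Sox9*, the factor required for chondrocyte fate, was at 410 CPM (388 to 432) in the culture and 1214 CPM (1177 to 1252) in the tail. Its partners *Sox5* (110 CPM and 262 CPM) and *Sox6* (68.6 CPM and 249 CPM) were 2.39-fold (2.11 to 2.71) and 3.63-fold (3.13 to 4.23) higher in the tail. *Pax1*, a factor of the ventral sclerotome and the future disc, was at 143 CPM (131 to 157) and 1073 CPM (1038 to 1109), 7.5-fold higher in the tail (6.81 to 8.27). Its paralogue *Pax9* was at 215 CPM and 181 CPM, and *Uncx*, a factor of the caudal sclerotome, at 18.9 CPM and 95.5 CPM. *Meox1*, which acts in the early somite and sclerotome, was the 1 factor at least 2-fold higher in the culture, at 158 CPM and 19.4 CPM. *Trps1*, a repressor active in growing cartilage, lay at 395 CPM and 412 CPM, a ratio of 1.04 (0.967 to 1.13) whose interval includes 1.

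Among tendon and fibrous genes *Scx* was level, and more genes stood on the culture side than on the tail side. *Scx* was at 1852 CPM (1806 to 1899) in the culture and 1905 CPM (1858 to 1952) in the tail, a ratio of 1.03 (0.993 to 1.07). Of 32 tendon and fibrous genes, 27 were compared, with 7 at least 2-fold higher in the culture, 3 at least 2-fold higher in the tail and a median log2 ratio of 0.19. These are 25.9% and 11.1% of the list, against 4.86% and 13% of all genes. *Dcn* (decorin), which regulates collagen fibril width, was at 662 CPM (635 to 691) and 36.3 CPM (30.1 to 43.4), 18.3-fold higher in the culture (15.2 to 22.1). The share of tail cells with *Dcn*, given below, is not shown to lie above background, so that the size of this ratio is uncertain. *Postn* (periostin), a matricellular protein of fibrous tissue, was at 992 CPM and 67.7 CPM, a ratio of 14.7 (12.8 to 16.9). *Thbs2*, a thrombospondin, was at 139 CPM and 17.5 CPM, *Bgn* (biglycan) at 768 CPM and 235 CPM, and *Col5a2*, a chain of the type V collagen that starts type I fibrils, at 458 CPM and 133 CPM. *Col14a1* was at 613 CPM and 274 CPM.

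The chains of type I collagen lay on opposite sides. *Col1a1* was at 1244 CPM (1207 to 1283) in the culture and 722 CPM (693 to 752) in the tail, whereas *Col1a2* was at 571 CPM (545 to 597) and 807 CPM (777 to 838). *Col3a1* was at 1244 CPM and 710 CPM. Higher in the tail were *Igfbp5*, an IGF-binding protein (328 CPM and 1504 CPM), and *Egr1*, a zinc-finger factor of tendon that is also an immediate early gene (45.7 CPM and 386 CPM). Among late tendon genes, *Mkx*, a homeobox regulator of tendon, was low on both sides (21.0 CPM and 29.6 CPM). *Tnmd* (tenomodulin) had 0 UMIs in the culture, which allows up to 0.902 CPM, and 29 UMIs in the tail. It was in 1.25% (0.259 to 3.61) of thinned tail cells, where 0 of 125 code 12 cells allow up to 2.4%, so that its level in the tail is not shown to lie above background, and it was below the 10% filter.

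Hypertrophy and bone formation follow cartilage in the limb and spine. Of 21 genes of these steps, 18 were measured and 7 compared, with 0 at least 2-fold higher in the culture and 3 in the tail (42.9%), against 4.86% and 13% of all genes. *Pth1r*, the receptor that restrains hypertrophy, was at 60.1 CPM (52.1 to 69.1) and 189 CPM (174 to 204), and *Mef2c*, a factor that drives it, at 71.6 CPM and 175 CPM. *Runx2*, a factor of hypertrophy and bone, differed less, at 29.2 CPM and 39.3 CPM. *Ihh*, the hedgehog ligand of prehypertrophic cells, had 0 UMIs in the culture and 20 UMIs in the tail. Among proteases and their inhibitors, 5 of 15 genes were at least 2-fold higher in the culture (33.3%) and 4 in the tail (26.7%), against 4.86% and 13% of all genes. With thinned cells it was 5 and 1 of 10, and centred on the median gene 5 and 2 of 15. Over all genes the counts were 460 and 550 with thinned cells, and 669 and 992 when centred. *Mmp2*, a gelatinase, was at 258 CPM and 119 CPM and its inhibitor *Timp1* at 63.1 CPM and 29.0 CPM.

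The share of cells with a UMI did not always follow the level. At 3000 UMIs per cell, *Col2a1* was found in 90.3% (87.8 to 92.5) of culture cells and 85.4% (80.3 to 89.6) of tail cells, although its level was higher in the tail. *Acan* was likewise found in 30.0% (26.4 to 33.7) and 25.4%, intervals that overlap, and in 34.5% and 35.7% before thinning, against 0.740% of code 3 cells and 0 of 125 code 12 cells. The shares of *Col2a1* in cells that should lack it, code 3 of the culture and code 12 of the tail, were 4.26% and 3.2%. *Sox9* was found in 58.8% (54.9 to 62.7) and 74.6% (68.6 to 80.0), against 1.85% of code 3 cells and 0 of 125 code 12 cells. *Pax1* differed more, with 22.2% (19 to 25.6) and 66.2% (59.9 to 72.2), against 0.463% and 0.8%. *Hapln1* was found in 5.30% (3.70 to 7.33) and 40% (33.8 to 46.5), against 0.0925% and 0 of 125. *Postn* ran the other way, with 67.2% (63.5 to 70.9) and 12.9% (8.95 to 17.8), against 4.72% and 2.4%, and so did *Dcn*, with 45.9% (42.0 to 49.8) and 3.33% (1.45 to 6.46), against 3.24% and 1.6%. The share of *Dcn* in the tail has an interval that includes its background. Before thinning the shares were 28.9% and 85.9% for *Pax1*, 5.03% and 59.3% for *Hapln1*, 65.5% and 26.6% for *Postn* and 45.7% and 14.52% for *Dcn*. For *Col2a1* they were 94.0% and 97.1% and for *Sox9* 64.8% and 92.1%.

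The tail cells were far more varied in their cartilage genes than the culture cells (see the plot of single cells). With each cell thinned to 3000 UMIs, the 29 cartilage matrix genes took a median of 21 UMIs per culture cell, with an interquartile range of 13 to 33 and the highest cell at 156. In the tail the median was 23, the interquartile range 8 to 59.5, and the highest cell had 253. The medians of tail and culture thus lay close, and the tail had both the lower quartile and the higher maximum, while the lowest culture cell had 1 UMI and the lowest tail cell 2. For the 32 tendon and fibrous genes the medians were 35 UMIs in the culture and 27 in the tail. Across cells of 1 library, which share depth and are not replicates, Spearman's rho between the lists was -0.13 over 641 culture cells and -0.14 over 240 tail cells.

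**Figure D2:**
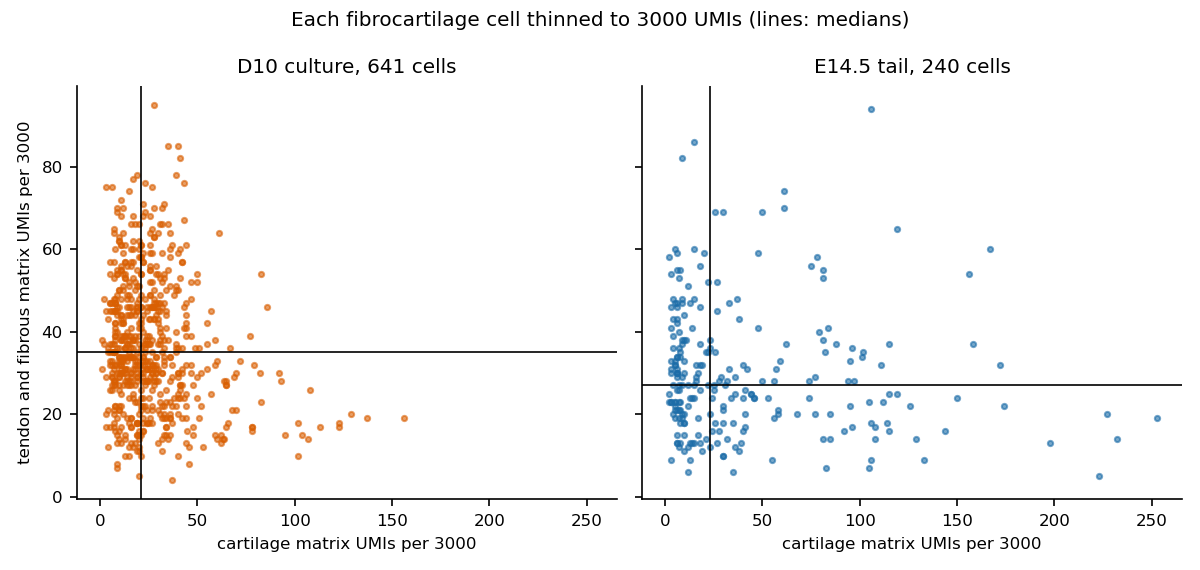
Each point is a fibrocartilage cell thinned to 3000 UMIs, 641 of the D10 culture on the left and 240 of the E14.5 tail on the right. The horizontal axis gives UMIs of cartilage matrix genes and the vertical axis UMIs of tendon and fibrous genes, with lines at the medians (21 and 35 in the culture, 23 and 27 in the tail). Tail cells spread to 253 cartilage UMIs, and many lie near 0.

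Splitting the thinned cells by a *Scx* UMI, a choice made after the values had been seen, showed where these cartilage genes lay. A *Scx* UMI was found in 551 of 641 culture cells (86.0%, 83.0 to 88.6) and 151 of 240 tail cells (62.9%, 56.5 to 69.0), against 10.5% of code 3 cells of the culture and 3.2% of code 12 cells of the tail. Before thinning the shares in the fibrocartilage cells were 86.7% and 75.1%. In the tail, cells without a *Scx* UMI had a median of 68 cartilage matrix UMIs and cells with one a median of 11. In the culture these medians were 26.5 and 21. Of 23 cartilage matrix genes compared in the tail, 20 were at least 2-fold higher in the cells without *Scx*, against 6.17% of the 6096 genes compared. In the culture it was 4 of 16, against 1.53% of 5623 genes. A gene was compared here if 10% or more of the cells with *Scx*, or of those without, had its UMI. Some genes entered only through the tail cells without *Scx*, where they are high. *Matn1* was found in 3 and *Snorc* in 1 of the 151 tail cells with *Scx*. The count in the tail is thus not independent of the filter. Cells were split by 1 gene at 3000 UMIs per cell, and cells without its UMI may still express it.

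*Col2a1* was at 1965 CPM in tail cells with a *Scx* UMI and 7251 CPM in those without, a ratio of 3.69 (3.41 to 4.0). In the culture the same ratio was 1.75 (1.63 to 1.88), from 2029 CPM and 3552 CPM. Given first for cells with a *Scx* UMI, *Acan* was at 75.1 CPM and 487 CPM in the tail, and at 186 CPM and 259 CPM in the culture. *Hapln1* was at 179 CPM and 1258 CPM in the tail, and at 25.4 CPM and 85.2 CPM in the culture, 3.35-fold higher without *Scx* (1.92 to 5.70). *Col11a2* was 5.22-fold higher without *Scx* in the tail (3.81 to 7.26) and 3.57-fold in the culture (2.28 to 5.51), so that for these genes the culture cells were not alike either. In the tail *Matn1* was at 33.1 CPM and 386 CPM, and *Snorc* had 1 UMI in the 151 cells with *Scx* and 46 UMIs in the 89 without. *Pax1* ran opposite to these, at 1616 CPM in tail cells with a *Scx* UMI and 416 CPM in those without, 3.89-fold higher with *Scx* (3.18 to 4.79). *Sox9* was at 744 CPM in tail cells with a *Scx* UMI and 1951 CPM in those without. In the culture the intervals for *Pax1* and *Sox9* included 1, with *Pax1* at 122 CPM and 141 CPM and *Sox9* at 377 CPM and 411 CPM.

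Joint detection was counted in the same thinned cells. In the tail, 31 of 240 cells (12.9%, 8.95 to 17.8) had UMIs of both *Scx* and *Hapln1*, where independent detection of these genes would give 25.2%. Both *Scx* and *Pax1* were found in 48.3% (41.9 to 54.9), against 41.7% if independent. In the culture the share with *Scx* and *Pax1* was 19.2% (16.2 to 22.5), against 19% if independent, and that with *Scx* and *Hapln1* 3.90% (2.54 to 5.70), against 4.56%.

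Between thinned cells that carried a *Scx* UMI, *Col2a1* and *Col9a2* were level in culture and tail, and other cartilage genes differed in both directions. *Col2a1* was at 2029 CPM in the culture and 1965 CPM in the tail, a ratio of 1.03 (0.959 to 1.11), and *Col9a2* at 509 CPM and 512 CPM. *Acan* was higher in the culture by 2.48-fold (1.74 to 3.65), *Col9a3* by 1.32-fold (1.15 to 1.51) and *Col11a1* by 1.28-fold (1.16 to 1.43). *Col9a1* was higher in the tail by 1.61-fold (1.44 to 1.80), *Col27a1* by 1.84-fold (1.33 to 2.53) and *Col11a2* by 3.22-fold (2.18 to 4.74). Over the cartilage matrix list, 4 of 17 genes were at least 2-fold higher in the culture and 4 in the tail, with a median log2 ratio of -0.01. With cells chosen by a *Scx* UMI before thinning, 741 in the culture and 181 in the tail, and all their UMIs used, 3 of 21 genes of the list were at least 2-fold higher in the culture and 9 in the tail. Over all genes these counts were 504 and 1352. The median of the list was then -0.91, and the log2 ratios of *Col2a1* (-0.53), *Col9a2* (-0.37), *Col9a3* (-0.29) and *Col11a1* (-0.23) lay on the tail side. The level *Col2a1* and *Col9a2* and the higher *Col9a3* and *Col11a1* of the culture thus hold for the thinned cells only. *Acan* stayed on the culture side (0.46). In the thinned cells the shares over all 5963 genes compared were 8.82% and 10.9%, with a median of -0.09. *Hapln1* remained higher in the tail by 7.04-fold (4.79 to 10.5) and *Cytl1* by 10.9-fold (7.0 to 17.6). In the thinned cells *Pax1* was 13.3-fold higher in the tail (11.4 to 15.6) and *Sox9* 1.97-fold (1.72 to 2.25). Of 23 tendon and fibrous genes, 8 were at least 2-fold higher in the culture and 2 in the tail. *Postn* was 15.8-fold higher in the culture (10.9 to 23.6), and *Dcn* had 1131 UMIs in the culture and 2 in the tail. *Scx* itself, by which the cells were chosen, was at 2273 CPM and 3406 CPM.

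**Figure D3:**
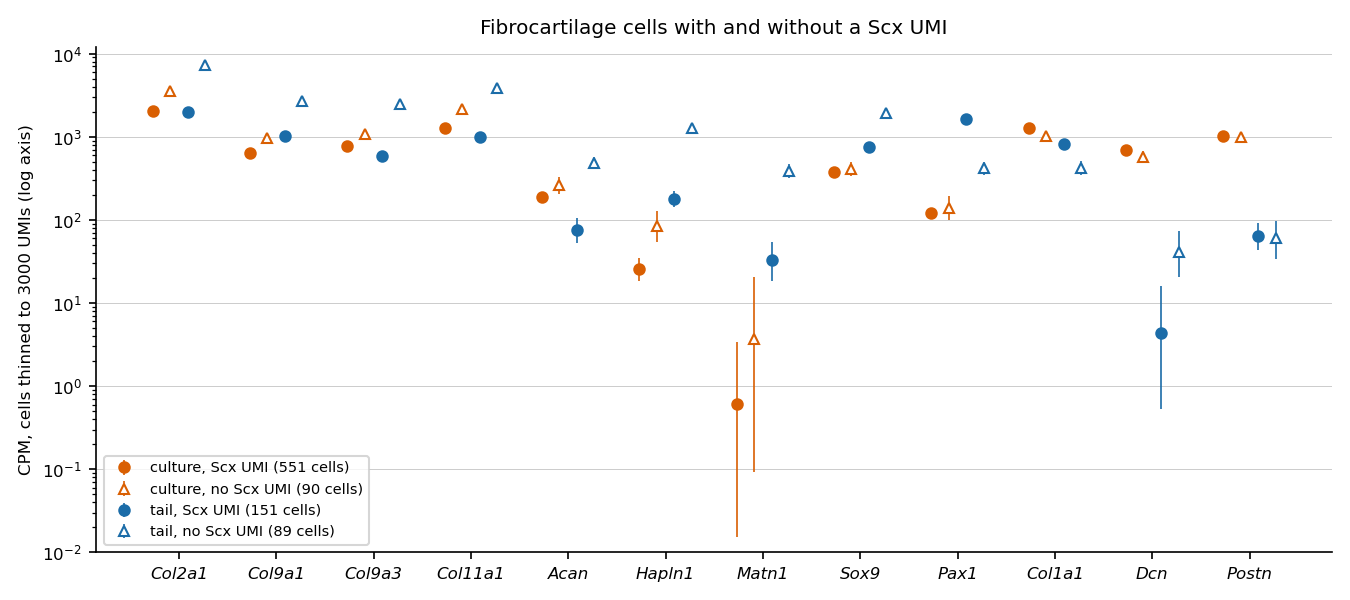
Levels of 12 genes in fibrocartilage cells thinned to 3000 UMIs, with (filled circles) and without (open triangles) a *Scx* UMI, in CPM on a log axis, with exact 95% Poisson intervals. Culture cells are orange and tail cells blue. Circle and triangle lie further apart in the tail than in the culture for *Col2a1*, at 1965 CPM and 7251 CPM against 2029 CPM and 3552 CPM, and *Pax1* has the opposite order in the tail.

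Genes of the oxygen response and glycolysis were higher in the culture. Hypoxia-inducible factors bind a short motif with the core ACGTG in the promoters of such genes when oxygen is low, and they raise glucose uptake, glycolysis and the hydroxylation of collagen. The promoters of 6 genes of these lists that were among the highest by ratio or level are printed because their genes lay together on the culture side. Each run holds the 250 bases before the gene's start, 5′ to 3′ on the gene's strand, from RefSeq (GRCm38.p6), with ACGTG on either strand (CACGT when read on the printed strand) in capitals.
*Car9*, chr4:43506776-43507025, plus strand: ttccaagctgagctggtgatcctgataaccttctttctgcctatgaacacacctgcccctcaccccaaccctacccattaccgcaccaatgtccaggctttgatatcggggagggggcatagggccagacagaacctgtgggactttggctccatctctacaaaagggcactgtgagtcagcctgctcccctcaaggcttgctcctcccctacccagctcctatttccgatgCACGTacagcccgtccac
*P4ha2*, chr11:54100674-54100923, plus strand: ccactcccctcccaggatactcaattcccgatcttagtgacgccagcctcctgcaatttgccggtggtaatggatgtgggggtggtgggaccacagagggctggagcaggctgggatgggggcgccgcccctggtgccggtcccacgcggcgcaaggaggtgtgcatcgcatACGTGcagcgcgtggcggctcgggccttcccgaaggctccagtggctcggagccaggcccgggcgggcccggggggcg
*Egln3*, chr12:54203875-54204124, minus strand: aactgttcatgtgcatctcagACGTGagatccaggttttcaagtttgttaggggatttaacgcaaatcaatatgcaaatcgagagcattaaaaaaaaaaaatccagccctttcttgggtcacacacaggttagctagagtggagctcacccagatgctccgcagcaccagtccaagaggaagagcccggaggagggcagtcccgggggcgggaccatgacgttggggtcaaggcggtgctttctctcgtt
*Ankrd37*, chr8:45999851-46000100, minus strand: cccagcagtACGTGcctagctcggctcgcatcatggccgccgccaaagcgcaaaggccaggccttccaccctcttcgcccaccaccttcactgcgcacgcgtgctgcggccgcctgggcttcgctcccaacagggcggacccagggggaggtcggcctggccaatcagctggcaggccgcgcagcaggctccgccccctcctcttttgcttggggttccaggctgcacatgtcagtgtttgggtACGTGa
*Pgk1*, chrX:106186850-106187099, plus strand: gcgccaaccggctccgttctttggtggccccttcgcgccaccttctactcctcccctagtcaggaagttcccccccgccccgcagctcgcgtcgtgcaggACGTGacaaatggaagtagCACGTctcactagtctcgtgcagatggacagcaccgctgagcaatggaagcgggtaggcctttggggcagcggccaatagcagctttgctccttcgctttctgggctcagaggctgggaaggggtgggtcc
*Stc2*, chr11:31370062-31370311, minus strand: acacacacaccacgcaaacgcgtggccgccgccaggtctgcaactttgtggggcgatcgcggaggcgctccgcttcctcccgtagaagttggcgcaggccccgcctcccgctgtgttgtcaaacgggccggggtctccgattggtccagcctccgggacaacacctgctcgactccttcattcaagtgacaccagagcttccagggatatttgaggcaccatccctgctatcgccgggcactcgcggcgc

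The motif was found in the 250 bases of 12 of 19 hypoxia genes with a promoter entry and 9 of 18 glycolysis genes, counting any promoter of a gene. Over all genes of the table it was in 4998 of 27025 (18.5%), over cartilage matrix genes in 5 of 23, and over tendon and fibrous genes in 4 of 21. A match describes these letters only and shows no binding. Shares were counted over the members of each list whatever their levels, and the hypoxia list was chosen for a known response to low oxygen. A higher share of the motif there is thus no result of these data. The part of these factors in the levels was not tested. *Stc2* had no match in its window and was among the genes with the largest ratios.

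Of 22 hypoxia genes, 19 were compared, and 13 were at least 2-fold higher in the culture and 0 in the tail, against 4.86% and 13% of all genes. Their median log2 ratio was 1.89. *Car9*, the carbonic anhydrase of hypoxic cells, had 193 UMIs in the culture and 1 UMI in the tail, a ratio of 192 (34.0 to 7620). It was found in 12.8% (10.3 to 15.6) of thinned culture cells, or 15.4% before thinning, against 0.833% of code 3 cells. In the tail it was found in 0 of 240 thinned cells, which allows up to 1.25%. *P4ha2*, a collagen prolyl hydroxylase, was at 777 CPM (748 to 808) and 66.5 CPM (58.0 to 75.9), 11.7-fold higher in the culture (10.2 to 13.5). *Egln3*, an oxygen sensor, was at 99.8 CPM and 7.86 CPM, and *Ero1l*, an oxidase of the endoplasmic reticulum, at 595 CPM and 45.7 CPM. *Stc2* (stanniocalcin) was at 68.9 CPM and 2.42 CPM, *Ankrd37* at 216 CPM and 27.8 CPM, and *Slc2a1*, the glucose transporter GLUT1, at 369 CPM and 98.0 CPM.

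Of 18 glycolysis genes compared, 15 were at least 2-fold higher in the culture (83.3%) and 0 in the tail, against 4.86% and 13% of all genes. Their median log2 ratio was 1.70. *Pgk1* (phosphoglycerate kinase) was at 2978 CPM (2920 to 3037) and 391 CPM (370 to 413), a ratio of 7.61 (7.18 to 8.07). *Aldoa* (aldolase) was at 2408 CPM and 490 CPM and *Ldha* (lactate dehydrogenase) at 2720 CPM and 925 CPM. Per thinned cell the glycolysis genes took a median of 53 UMIs in the culture and 12 in the tail, and the interquartile ranges, 44 to 61 and 7 to 19, did not overlap. In the tendon cells of the same libraries the median log2 ratio of hypoxia genes was 1.83 and that of glycolysis genes 1.96.

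Several enzymes that modify collagen lay on the same side. Of 31 genes of collagen processing compared, 9 were at least 2-fold higher in the culture (29.0%) and 2 in the tail (6.45%), against 4.86% and 13% of all genes. The tail count was 1 with thinned cells and 1 when centred on the median gene, where the tail counts over all genes were 550 and 992. *Plod2*, a lysyl hydroxylase that sets crosslinks in fibrous tissue, was at 1634 CPM and 320 CPM, 5.11-fold higher in the culture (4.79 to 5.47). *P4ha1* was at 1065 CPM and 326 CPM. *Lox* (lysyl oxidase) was at 155 CPM and 27.8 CPM and *Loxl2* at 268 CPM and 75.9 CPM. *Pcolce2*, an enhancer of procollagen cleavage, was lower in the culture, at 13.2 CPM and 54.4 CPM.

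**Figure D4:**
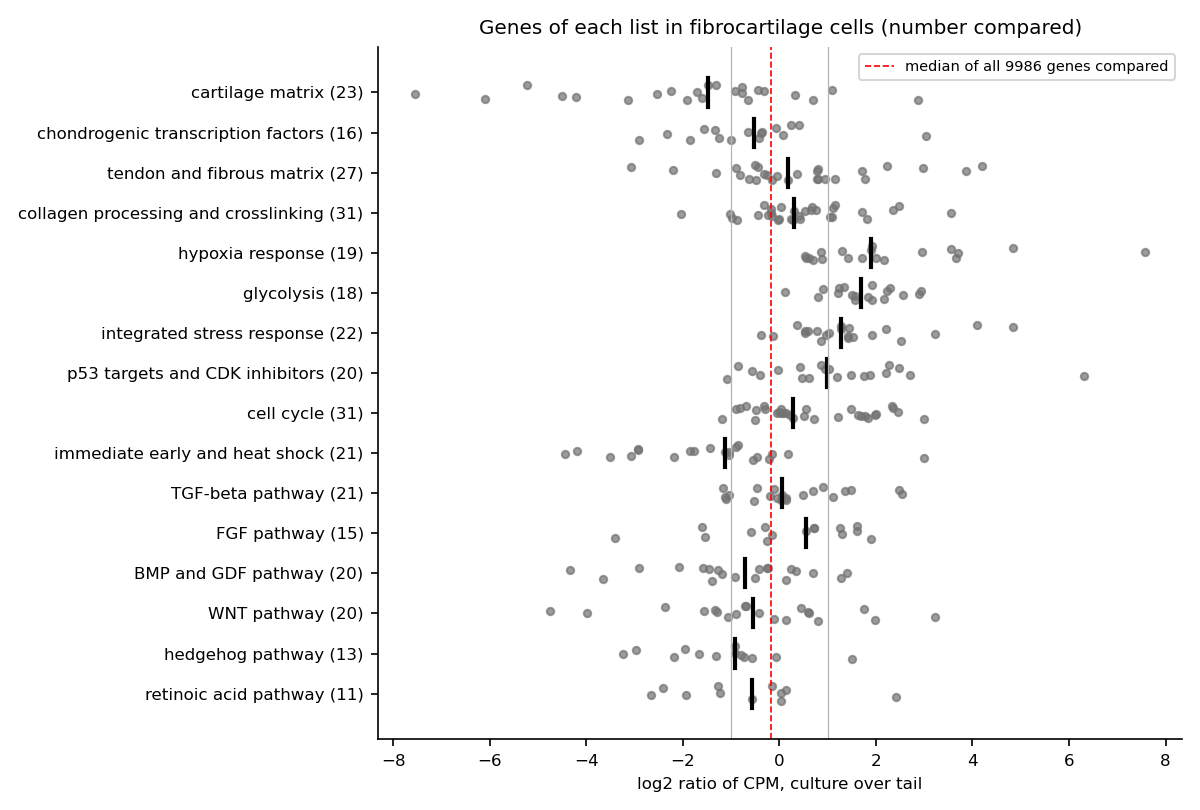
Log2 ratio of CPM, culture over tail, of every compared gene of 16 lists in fibrocartilage cells (points, with the number of genes in parentheses) and the median of each list (black bars). The dashed line is the median of all 9986 genes compared (-0.18) and grey lines mark 2-fold. The hypoxia (1.89) and glycolysis (1.70) lists have the highest medians drawn and the cartilage matrix list (-1.48) the lowest.

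By count of genes, those of stress and arrest also stood more often on the culture side. Of 22 genes of the integrated stress response, 13 were at least 2-fold higher in the culture (59.1%) and 0 in the tail, against 4.86% and 13% of all genes. *Asns* (asparagine synthetase) was at 195 CPM and 34.2 CPM, *Nupr1* at 149 CPM and 8.77 CPM, *Mthfd2* at 119 CPM and 25.7 CPM, and *Ddit3*, the factor CHOP, at 86.9 CPM and 23.0 CPM. Of 20 p53 targets and CDK inhibitors, 10 were at least 2-fold higher in the culture (50%) and 1 in the tail (5%), against 4.86% and 13% of all genes. *Cdkn1a*, the inhibitor p21, was at 502 CPM (479 to 527) and 6.35 CPM (3.93 to 9.71), a ratio of 79.1 (51.6 to 128). *Ccng1* was at 149 CPM and 23.0 CPM. *Cdkn1c*, the inhibitor p57 of differentiating chondrocytes, was the 1 gene at least 2-fold higher in the tail, at 2541 CPM and 5410 CPM. The summed level of this list was higher in the tail, at 4988 CPM and 6409 CPM.

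Immediate early and heat shock genes were on the tail side, with 1 of 21 at least 2-fold higher in the culture (4.76%) and 13 in the tail (61.9%), against 4.86% and 13% of all genes. With thinned cells it was 1 and 7 of 16, where the counts over all genes were 460 and 550. *Fos* was at 30.1 CPM (24.5 to 36.6) and 551 CPM (526 to 577), *Fosb* at 8.42 CPM and 184 CPM, and *Klf2* at 22.6 CPM and 255 CPM. *Ier3* was the exception, at 274 CPM and 34.2 CPM. The part of cell dissociation in these levels was not tested. Of 31 cell cycle genes, 12 were at least 2-fold higher in the culture (38.7%) and 1 in the tail (3.23%), against 4.86% and 13% of all genes. *Top2a*, a topoisomerase of dividing cells, was at 125 CPM and 24.5 CPM and *Cenpf* at 127 CPM and 32.4 CPM. *Ccnd1*, the cyclin of G1, was at 124 CPM and 283 CPM. Without the cells that had a UMI of *Top2a*, *Mki67* or *Cenpf*, which left 564 culture and 173 tail cells, 3 of 22 were at least 2-fold higher in the culture and 1 in the tail. Over all genes the counts were then 471 and 1327, and the cartilage matrix median was -1.06.

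Counts in the signaling pathways are given with their share of the pathway's compared genes, beside 4.86% of all genes for the culture and 13% for the tail. Over all genes the counts were 460 and 550 with thinned cells, and 669 and 992 when centred on the median gene. Of 21 TGFβ pathway genes, 5 were at least 2-fold higher in the culture (23.8%) and 4 in the tail (19%). With thinned cells it was 5 and 2 of 18, and centred on the median gene 6 and 0 of 21. Among targets, *Pmepa1*, a feedback inhibitor, was at 739 CPM and 127 CPM, *Skil* at 239 CPM and 85.3 CPM and *Tgfbi* at 299 CPM and 138 CPM. The ligand *Tgfb3* was at 31.3 CPM and 68.0 CPM. Of 15 FGF pathway genes, 5 were at least 2-fold higher in the culture (33.3%) and 3 in the tail (20%), and with thinned cells it was 2 and 2 of 8. Its targets *Dusp6* (71.3 CPM and 19 CPM) and *Etv4* (35.2 CPM and 11.5 CPM) were higher in the culture, and the receptor genes *Fgfr3* (6.31 CPM and 67.4 CPM) and *Fgfr2* (59.8 CPM and 173 CPM) in the tail.

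In the hedgehog pathway, 1 of 13 genes was at least 2-fold higher in the culture (7.69%) and 6 in the tail (46.2%). *Ptch1*, both receptor and target, was at 366 CPM (346 to 387) and 386 CPM (365 to 407), a ratio of 1.05 (0.972 to 1.14). The antagonist *Hhip*, also a target, was at 118 CPM and 41.7 CPM, and *Gli1* at 22.3 CPM and 42.3 CPM. The coreceptor *Gas1* was at 68.3 CPM and 539 CPM, *Gli3* at 27.4 CPM and 107 CPM, and *Foxf1* at 7.22 CPM and 68.6 CPM.

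BMP genes stood more often on the tail side. Of 20 BMP and GDF genes, 2 were at least 2-fold higher in the culture (10%) and 9 in the tail (45%), and with thinned cells it was 2 and 5 of 16. Targets such as *Id1* (339 CPM and 778 CPM) and *Id3* (435 CPM and 1144 CPM) and the antagonist *Nog* (3.31 CPM and 66.8 CPM) were higher in the tail. *Bmp5*, a ligand, was at 139 CPM and 52.9 CPM. Of 20 WNT genes, 3 were at least 2-fold higher in the culture (15%) and 7 in the tail (35%), and the summed level of the list was 2016 CPM and 1767 CPM. Secreted modulators lay on opposite sides, with *Sfrp2* at 6.92 CPM and 188 CPM and *Sfrp1* at 262 CPM and 65.9 CPM.

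Retinoic acid, which the study varied to shift cells between tendon and fibrocartilage, gave 1 of 11 genes at least 2-fold higher in the culture (9.09%) and 5 in the tail (45.5%). *Rarg*, a retinoic acid receptor, was at 88.1 CPM (78.3 to 98.8) in the culture and 214 CPM (198 to 230) in the tail. The binding proteins *Crabp1* (28.6 CPM and 152 CPM) and *Crabp2* (43.9 CPM and 168 CPM) and the degrading enzyme *Cyp26b1* (37.6 CPM and 88.3 CPM) were also higher in the tail. *Aldh1a3*, an enzyme that makes retinoic acid, had 65 UMIs and 2 UMIs, a ratio of 32.3 (8.60 to 273), and was below the 10% filter on both sides.

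*Hox* genes, which encode position along the body axis, separated the sides by paralogue number (see the plot of *Hox* levels). Of 12 genes with numbers 10 to 13, 12 were compared, and 0 were at least 2-fold higher in the culture and 11 in the tail, against 4.86% and 13% of all genes. Their summed level was 29.8 CPM in the culture and 766 CPM in the tail, and 7 of the 12 had 0 UMIs in the culture. The highest culture level among the 12 was 21.0 CPM, too few UMIs for 10% of the culture cells. All 12 thus passed the 10% filter through the tail cells alone, the side where most are high, so that this count is not independent of the filter. Thinned cells were counted by complex, over all paralogue numbers, as genes at least 2-fold higher in culture and tail. It was 0 and 3 of 4 for *Hox* A, 0 and 2 of 6 for *Hox* B, 0 and 4 of 4 for *Hox* C, and 2 and 1 of 3 for *Hox* D. *Hoxc13* had 0 UMIs in the culture and was at 198 CPM (183 to 214) in the tail. *Hoxd10* was the exception, at 21.0 CPM and 21.5 CPM. *Hoxa10* was at 2.10 CPM and 125 CPM and *Hoxd11* at 4.51 CPM and 84.4 CPM. Of 27 genes with numbers 1 to 9, 18 were compared, with 5 at least 2-fold higher on each side and summed levels of 547 CPM and 467 CPM. *Hoxd8* was at 63.1 CPM and 6.05 CPM, *Hoxd9* at 44.8 CPM and 4.23 CPM and *Hoxc4* at 31.9 CPM and 4.54 CPM.

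**Figure D5:**
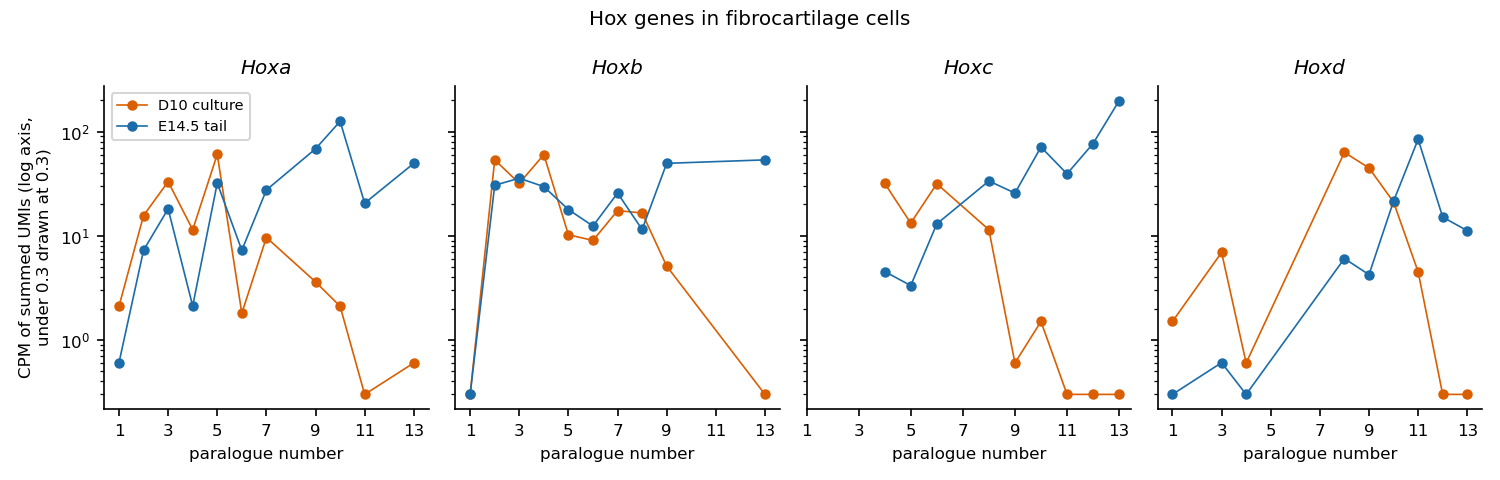
Level of each *Hox* gene in fibrocartilage cells against its paralogue number, 1 panel per *Hox* complex, in CPM on a log axis, with levels under 0.3 CPM drawn at 0.3. From number 11 on, every tail level (blue) lies above the culture level (orange), and *Hoxc13*, without a UMI in the culture, reached 198 CPM in the tail.

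Imprinted noncoding RNAs of the *Dlk1*-*Meg3* locus differed widely between the libraries. *Meg3* was at 91.4 CPM (81.4 to 102) in the culture and 2701 CPM (2646 to 2758) in the tail, 29.5-fold higher in the tail (26.4 to 33.2). *Rian* was at 12.6 CPM and 332 CPM and *Mirg* at 4.51 CPM and 55.6 CPM. *Dlk1*, the protein-coding gene of the locus, was higher in the culture, at 2062 CPM and 662 CPM. *H19*, *Igf2* and *Peg3*, of other imprinted loci, differed by less than 2-fold, with *H19* at 2717 CPM and 2151 CPM. Of 27 genes of the IGF axis and imprinted genes, 5 were at least 2-fold higher in the culture (18.5%) and 8 in the tail (29.6%), against 4.86% and 13% of all genes. *Igfbp2* was at 879 CPM and 126 CPM.

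Sex-linked genes divided the tail cells. Of 241 cells, 181 had UMIs of the Y-linked genes *Ddx3y*, *Eif2s3y*, *Kdm5d* or *Uty* and none of *Xist*, 50 had *Xist* alone, 5 had both and 5 had neither. In the culture 0 of 855 cells had a Y-linked UMI and 7 had *Xist*. Against the tail cells with Y-linked UMIs alone, 13 of 23 cartilage matrix genes were at least 2-fold higher in the tail, with a median log2 ratio of -1.37, and against those with *Xist* alone it was 13 of 23 and -1.63. Over all genes, the counts at least 2-fold higher in culture and tail were 470 and 1287 against the first. They were 639 and 1578 against the second, and 485 and 1300 in the main comparison.

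The same contrast in tendon cells (code 1) showed where the fibrocartilage cells differed. The median log2 ratio of the cartilage matrix genes compared was -1.48 in fibrocartilage cells and 0.45 in tendon cells, and that of the tendon and fibrous genes 0.19 and -0.22. *Dcn* was at 1765 CPM in tendon cells of the culture and 1499 CPM in those of the tail, so that the ratio of culture over tail was 15.5-fold higher in fibrocartilage than in tendon cells (12.9 to 18.7, counting error only). For *Lox* this was 4.58-fold (3.65 to 5.74). The size of the *Dcn* gap is uncertain, because *Dcn* in the tail's fibrocartilage cells is not shown to lie above background. *Pax1* gave a ratio alike in both clusters, 17.2 CPM and 122 CPM in tendon cells, a gap of 0.942 (0.802 to 1.11) between the clusters. *Meg3* had 71.6 CPM and 3444 CPM in tendon cells, *Cdkn1a* 524 CPM and 2.57 CPM, and *Fos* 27.3 CPM and 889 CPM. *Hoxc13* had 0 UMIs in culture tendon cells and 163 CPM in those of the tail. With 1 library per side, whether these differences are of the origin or of the library cannot be told apart.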

How the data were processed

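Single-cell RNA-seq counts of 2 libraries were analysed, the D10 culture and the E14.5 tail, and a D6 library was not used here. The values deposited by the authors are raw UMI counts, whole numbers for each gene in each cell, with each cell's cluster code. The authors made them with Cell Ranger, ignoring multi-mapping reads, and Seurat 3.0, and removed cells over a mitochondrial limit and with extreme totals. The genome build of these counts is not given in the sources used here. Multi-mapping reads being ignored, genes with near copies are uncertain. *Rps2*, a ribosomal protein gene, is one of these, and was among the largest ratios at 1334 CPM in the culture and 14.2 CPM in the tail. The cause was not tested.

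UMIs were summed over the cells of code 4 and divided by all UMIs of those cells. A gene was compared if 10% or more of these cells had a UMI in the culture or in the tail, and counted at a 2-fold difference. A level of 0 stood at a floor of 3 counts over the group in a ratio. Ratios of ratios used a normal interval of the log ratio from the counts. Thinning drew 3000 UMIs per cell without replacement (seed 1), leaving out 214 culture cells and 1 tail cell. Cells are not replicates, so no p-values were computed. PCR duplicates are collapsed by UMIs, and intervals cover counting error only.

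The cells and the 33 gene lists were chosen with earlier results of these data known. By the rule used, list members, genes the study names for these clusters and the 15 genes with the largest ratios in each direction could be named (at least 100 UMIs over both libraries and 50 CPM in the higher one, haemoglobin left out), with 2 to 6 members per list. More cartilage and fibrous genes than that were named after their values were seen. Alternatives varied the genes in the total, the weighting, depth, doublets (Scrublet at an expected rate of 6%, kept in the main results), the filter and the fold. Python 3.11.15, NumPy 2.4.6, SciPy 1.17.1, Scanpy 1.11.5 and Matplotlib 3.10.9 were used. Promoters came from RefSeq (GRCm38.p6).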

Additional observations from a re-analysis of the deposited data

Results flagged for a closer look

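For 12 of the 66 genes compared in the cartilage matrix, transcription factor and fibrous lists, the ratio of culture over tail lay on opposite sides of 1 in fibrocartilage and in tendon cells, with both 95% intervals clear of 1 and at least a 3-fold gap between the ratios. The gap and its interval are given for each, with the tendon-cell levels of culture and tail in parentheses. They cover counting error only, and the difference between the clusters was not tested. How many of all genes compared met this rule was not counted, so that 12 of 66 stands without a background share.

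Lower in the culture among fibrocartilage cells but higher in the culture among tendon cells were *Acan* by 14.2-fold (7.45 to 27.0, 11.3 CPM and 0.988 CPM), *Col9a3* by 6.09-fold (5.42 to 6.85, 138 CPM and 38.8 CPM), *Col11a1* by 3.97-fold (3.74 to 4.21, 544 CPM and 216 CPM), *Col2a1* by 3.71-fold (3.45 to 3.99, 218 CPM and 111 CPM) and *Col9a1* by 3.02-fold (2.67 to 3.42, 54.6 CPM and 44.7 CPM). The same held for the transcription factors *Sox9* by 5.06-fold (4.54 to 5.64, 108 CPM and 63.4 CPM) and *Sox5* by 3.37-fold (2.73 to 4.14, 27.2 CPM and 19.4 CPM), and for the tendon regulator *Mkx* by 3.09-fold (2.20 to 4.34, 48.9 CPM and 22.3 CPM). The tendon-cell levels of *Acan* rest on 187 UMIs in the culture and 10 in the tail, and they were not set against background. Code 3 cells of the culture, which should lack *Acan*, had it in 2.57% before thinning, so that the size of its gap is uncertain. For *Acan* the lower level in the culture did not hold by mean CPM per cell (log2 ratio 0.0031) or in cells with a *Scx* UMI (0.46), nor for *Mkx* with thinned cells (0.07). In thinned cells with a *Scx* UMI, *Col9a3* and *Col11a1* too were higher in the culture, by 1.32-fold (1.15 to 1.51) and 1.28-fold (1.16 to 1.43), but with the cells chosen by *Scx* before thinning and all their UMIs used both were lower there, with log2 ratios of -0.29 and -0.23. In the thinned cells the intervals for *Col2a1* (1.03, 0.959 to 1.11), *Tnc* (0.892, 0.709 to 1.13) and *Mkx* (0.738, 0.381 to 1.52) included 1. The first pattern also held for *Tnc* by 7.59-fold (6.71 to 8.58, 447 CPM and 91.3 CPM), which encodes tenascin C, and *Igfbp5* by 6.82-fold (6.36 to 7.31, 1394 CPM and 937 CPM). The reverse pattern, higher in the culture among fibrocartilage cells and lower among tendon cells, was that of *Col3a1* by 3.31-fold (3.14 to 3.49, 1884 CPM and 3557 CPM) and *Lum* by 3.04-fold (2.71 to 3.42, 385 CPM and 608 CPM), which encodes lumican. Cells were assigned to clusters by expression, and the part of that assignment in these gaps was not tested.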

How the results depend on the processing

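The count of genes at least 2-fold higher in the culture (485) and in the tail (1300) became 1102 and 2563 at a fold of 1.5, 149 and 367 at a fold of 4, and 1433 and 3364 with no filter on low genes. The tail count was 550 with cells thinned to 3000 UMIs and 684 for genes with 100 UMIs or more in sum. The median log2 ratio of the cartilage matrix list (-1.48) was -1.04 with thinned cells, -1.06 without cells with a UMI of *Top2a*, *Mki67* or *Cenpf*, and -0.91 with only cells with a *Scx* UMI. That of the tendon and fibrous list (0.19) was 0.49 with thinned cells and 0.44 against tail cells with *Xist* and no Y-linked UMI. The cause was not tested. The selections of cells by *Top2a*, *Scx*, *Shh*, haemoglobin, *Xist* and Y-linked UMIs were chosen after seeing the data. *Xist* itself had a log2 ratio of 2.76 against tail cells chosen for having none, by construction. *Aspn* (-1.31) had 1.80 against tail cells with *Xist* and no Y-linked UMI. *T* (-2.36), whose UMIs in the tail came almost all from 1 cell, had 2.58 without cells with a UMI of *Top2a*, *Mki67* or *Cenpf* and 2.42 without tail cells with a *Shh* UMI. No other log2 ratio at least 2-fold in size among 166 genes named in the text changed sign. Below 2-fold, *Acan*, *Pax9*, *Trps1*, *Scx*, *Mkx*, *Ptch1* and *Hoxd10* changed sign under 1 or more alternatives, with *Acan* at 0.0031 by mean CPM per cell and 0.46 in cells with a *Scx* UMI, and *Mkx* at 0.07 with thinned cells. Between 0 and 10 of these genes crossed the 2-fold limit per alternative. Scrublet called 2 of the 855 culture cells and 0 of the 241 tail cells. No library could be left out with 1 per side. No paired analysis was possible because each group has 1 library. Depth limits low genes on both sides, since 3 counts are 0.902 CPM in the culture and 0.907 CPM in the tail.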

Other observations

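The row of the ScxGFP transgene was at 41.5 CPM (34.9 to 49.0) in the fibrocartilage cells of the culture and 65.3 CPM (56.9 to 74.6) in those of the tail, 1.57-fold higher in the tail (1.27 to 1.96), while *Scx* itself was level.

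Among the genes with the largest ratios that belong to no list above, *Pcp4*, a small calmodulin-binding protein, was at 234 CPM in the culture and 9.68 CPM in the tail. In tendon cells it was at 32.3 CPM and 18.8 CPM, a gap between the ratios of 14-fold (9.51 to 20.8). *Col18a1*, a basement membrane collagen, was at 415 CPM and 27.2 CPM, and *Gas6*, a ligand of TAM receptors, at 93.2 CPM and 3.93 CPM. On the tail side, *Scin*, an actin-severing protein, had 3 UMIs and 244 UMIs, a ratio of 81.8 (27.7 to 399), and it had 0.395 CPM in tail tendon cells. *Grin3a*, a glutamate receptor subunit, had 1 UMI and 166 UMIs.

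A single tail cell held 118 of the 133 *Shh* UMIs, 54 of the 56 UMIs of *T*, both notochord genes, and 135 of the 135 *Car3* UMIs of the tail's fibrocartilage cells, together with 403 *Col2a1* UMIs.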
